A study of Mus musculus with 6 samples.

Results

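The genes described here carry glucose into the cell, break it down to lactate and answer to low oxygen. The 36 genes comprise 4 glucose transporters, 3 hexokinases, 7 enzymes of upper glycolysis, 4 bifunctional PFK-2/FBPase-2 enzymes, 7 enzymes of lower glycolysis, 4 lactate enzymes and transporters and 7 genes of the hypoxia response. They were taken from the count table by symbol. Each of the 36 symbols was found among the 35976 listed in the count table, and each was among the 14542 genes that passed the expression filter and were tested. RNA-seq had been performed on brown adipose tissue (BAT) of 3 sST2-KO mice and 3 WT littermates, to ask how gene expression in BAT depends on soluble ST2 when its nerves are cut and the animals are cold. In the sST2-KO mice, a CRISPR/Cas9 deletion in the Il1rl1 gene removes the intronic segment with the stop codon of soluble ST2, a secreted form of the interleukin 33 receptor. The deletion is present in the whole body, so a difference in BAT need not originate there. All 6 mice had a C57BL/6J background, were 10 weeks old, had undergone surgical denervation of BAT and were exposed to 10 °C for 8 h. Neither animals with intact nerves nor animals kept warm belong to the comparison.

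Glucose enters cells through facilitative transporters and is trapped by hexokinases. Glycolysis then splits it into pyruvate, which either enters mitochondria or is reduced to lactate and exported together with a proton. Brown adipocytes take up large amounts of glucose when they produce heat, in part through the insulin-responsive transporter encoded by Slc2a4. Under low oxygen, the hypoxia-inducible factors (HIFs) escape hydroxylation by the prolyl hydroxylases of the Egln family and induce many genes of glycolysis. Several enzymes come as isoforms from separate genes. Eno3, Pgam2 and Pfkm encode those that predominate in skeletal muscle.

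HIF recognizes a short core sequence. The stretches that carry it near the start sites are shown here for Hif1a, some genes that changed and Ldha. Ldha did not pass the test, and its partner in the same family, Ldhb, which fell, also held a site that is not shown. The 250 bases upstream of the start of each gene's Ensembl canonical transcript (GRCm39) were searched on both strands for ACGTG and GCGTG, which read CACGT and CACGC on the opposite strand. Overlapping matches were counted as 1 site. At least 1 site was found for 25 of the 36 genes, or 69.4%, and for 41.3% of the upstream stretches of 21757 protein-coding genes. A site was present for 7 of the 10 genes that rose in sST2-KO mice, 5 of the 6 that fell and 13 of the 20 that did not pass the test. A match describes letters only and not the binding of a factor. For each gene, only the site nearest the start is shown, although Ldha held 4 sites and Slc2a4 and Slc16a1 held 2 each. The 30-base stretches below are written 5′ to 3′ on the strand of the gene, with the site in capitals, and lie upstream of the canonical start at chr11:69839096-69839125 (-), chr11:70547605-70547634 (+), chr4:150320923-150320952 (+), chr7:46495233-46495262 (+), chr11:120839470-120839499 (+), chr3:104545768-104545797 (+) and chr12:73954494-73954523 (+).
Slc2a4: ctaggggtggggGCGTGgccttttggggtg
Eno3: gagtgagtggagCACGTGtcagtcttgcag
Eno1: actgccttattaGCGTGagctggacagtag
Ldha: ttccatttaaggccccgcccGCGTGctgct
Slc16a3: ggtgtggtggggGCGTGtgccacccggcag
Slc16a1: gcggcgccgggtCACGTGgcgggaaggggg
Hif1a: cacacagacaagCACGTGagcggggcagct
The first base of the nearest site lay 27 bases upstream of the start for Slc2a1 and 52 bases upstream for Slc2a4. For Eno3, Slc16a1 and Hif1a, the site shown reads the same on both strands. No annotated exon lies in the 250-base stretch of Slc2a1 or Hif1a, whereas exons of other transcripts of the same gene reach into that of Slc2a4, Eno3, Eno1, Ldha and Slc16a3, and an exon of Gm65697 into that of Slc16a1.

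For Slc2a1 (chr4:118965658-118965907, +), the partner of Slc2a4 that rose, the whole 250 bases upstream are shown in the same form.
Slc2a1: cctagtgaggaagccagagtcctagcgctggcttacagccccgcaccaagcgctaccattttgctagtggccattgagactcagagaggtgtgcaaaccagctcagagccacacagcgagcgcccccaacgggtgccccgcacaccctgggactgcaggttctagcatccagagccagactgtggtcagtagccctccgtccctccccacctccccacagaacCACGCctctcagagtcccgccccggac
It holds 1 site. Pgam2 and Pfkl held no match in this window, while their partners Pgam1 and Pfkm did.

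The libraries held between 8159442 and 12874809 counts. Mitochondrial genes took 6.80% of them in sST2-KO replicate 3 and 11.8% to 16.6% in the other libraries. The targeted gene, Il1rl1, was counted 19, 19 and 6 times in the WT libraries and 55, 69 and 142 times in the sST2-KO libraries. Values per library are given in the order of the replicates 1 to 3 throughout. These counts add up soluble ST2 and the membrane form, so they do not check the genotype. Markers of several cell types differed between the groups. Ucp1, the uncoupling protein of brown adipocytes, was measured at 5229, 6460.5 and 10522 CPM in the 3 WT mice and 160.4, 1042 and 153 CPM in the 3 sST2-KO mice (TMM-normalized CPM, the unit of all levels below), and 6 of 9 brown adipocyte markers fell. The summed level of 18 skeletal muscle markers was 1763, 218 and 234 CPM in the 3 WT mice and 8475, 4553 and 19319 CPM in the 3 sST2-KO mice. All 18 were higher in each sST2-KO library than in any WT library, and 5 of them rose. The summed level of 8 macrophage markers was 729, 653 and 503 CPM in the 3 WT mice and 1303, 1144 and 5252 CPM in the 3 sST2-KO mice, and 3 of them rose. All 5 erythrocyte markers tested fell (median log2 fold change -4.39), with a sum of 7 markers of 485, 905 and 1587 CPM in the 3 WT mice and 108, 19.1 and 11.2 CPM in the 3 sST2-KO mice. None of 8 fibroblast markers passed the test, and their sum of 6321, 2049 and 2389 CPM in the 3 WT mice and 1172, 2309 and 10166 CPM in the 3 sST2-KO mice was highest in sST2-KO replicate 3. Of 8 endothelial markers, 1 rose and 1 fell. In bulk tissue, fewer cells of a type and less RNA per cell cannot be told apart. The smallest two-sided p that an exact permutation test can reach for 1 gene alone is 0.10 with this number of mice.

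In the BAT of sST2-KO mice, 10 of the 36 genes rose and 6 fell (adjusted p under 0.05, quasi-likelihood test of edgeR, Benjamini-Hochberg adjustment over all genes tested). Of all genes tested, 10.5% rose and 9.1% fell, which makes 19.6% in either direction, against 44.4% of the 36 genes. Log2 fold changes are sST2-KO minus WT and are given with their standard error (SE). All 16 changed more than 2-fold, a criterion met by 9.04% of genes tested for rises and 7.1% for falls. The genes that rose were Slc2a1, Slc2a3, Slc2a6, Hk3, Pfkm, Pgam2, Eno3, Slc16a3, Hif1a and Car9. Those that fell were Slc2a4, Pfkl, Pgam1, Eno1, Ldhb and Slc16a1. In 22 of the 36 genes (61.1%), the groups did not overlap, against 41.5% of all genes tested. Of these, 10 were higher in sST2-KO mice (21.8% of all genes tested) and 12 were lower (19.7% of all genes tested). With levels scaled by total counts instead of TMM factors, 18 genes did not overlap (50.0%, against 44.0% of all genes tested), 12 of them higher and 6 lower (31.4% and 12.6% of all genes tested). On that scale, Gpi1, Aldoa, Pfkfb2, Ldha, Epas1 and Egln1 overlapped between the groups, while Hk1 and Ankrd37 no longer did. The median log2 fold change was -0.35 over the 36 genes and 0.034 over all genes tested. Without Pfkm, Pgam2 and Eno3, it was -0.42, with 7 of 33 genes rising and 6 falling.

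**Figure D1:**
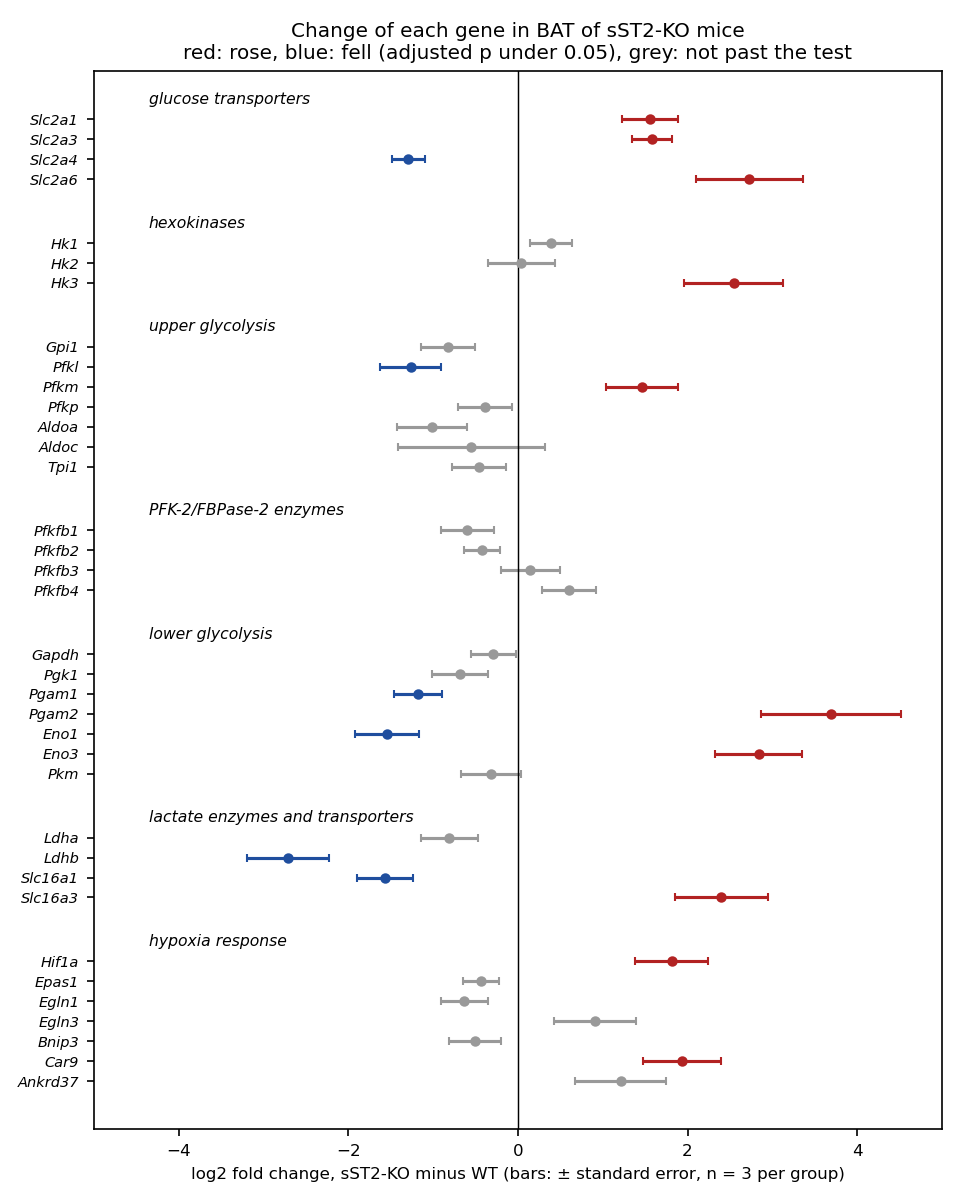
Log2 fold change (sST2-KO minus WT) of each of the 36 genes, grouped by role, with bars for ± 1 standard error (n = 3 mice per group). Red points rose, blue points fell and grey points did not pass the test, and in the enolase, phosphoglycerate mutase and monocarboxylate transporter families 1 gene lies on either side of 0.

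The number of genes past the test depended on single libraries. Without WT replicate 3, none of the 16 passed (adjusted p = 0.061 to 0.162, edgeR), although 17 of the 36 genes had an unadjusted p under 0.05. Without WT replicate 2, only Slc2a3, Slc2a4 and Ldhb passed, and the other 13 had an adjusted p of 0.0564 to 0.121 in edgeR. Without sST2-KO replicate 3, 9 no longer passed (adjusted p = 0.0506 to 0.113, edgeR), namely Eno1, Pfkl, Slc16a1, Pgam1, Pfkm, Hif1a, Slc2a1, Pgam2 and Car9. Leaving out WT replicate 1 ended the calls of Pfkm, Hif1a, Slc2a1, Hk3, Slc16a3, Slc2a6 and Car9 (adjusted p = 0.0502 to 0.122, edgeR). Leaving out sST2-KO replicate 1 did so for Eno1, Pfkl and Pfkm, with adjusted p values of 0.0664 to 0.0902 in edgeR. Leaving out sST2-KO replicate 2 did so for Eno1, Pfkl, Hif1a and Car9, with adjusted p values of 0.0505 to 0.0705 in edgeR. In each of these fits, all 16 genes kept the sign of their fold change. Their groups did not overlap, so leaving out 1 library could hardly reverse a sign, and the kept signs are no test of the direction. Of these libraries, WT replicate 3 had the highest WT level in 24 of the 36 genes, and sST2-KO replicate 3 had the highest sST2-KO level in 9 of the 10 genes that rose.

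All 4 glucose transporters changed, 3 upward and 1 downward. Slc2a4 (chr11:69831006-69839070, - strand) encodes GLUT4, which insulin brings to the surface of fat and muscle cells, and it was measured at 165, 169 and 213 CPM in the 3 WT mice and 78.4, 78.8 and 66.2 CPM in the 3 sST2-KO mice. The WT values were close to each other and lay above all sST2-KO values, and Slc2a4 fell (log2 fold change -1.29, SE 0.19, adjusted p = 0.0136). Slc2a1, which encodes the basal transporter GLUT1, was at 24.3, 36.3 and 44.0 CPM in the 3 WT mice and 63.8, 108 and 136 CPM in the 3 sST2-KO mice. The lowest sST2-KO value exceeded the highest WT value, and Slc2a1 rose (log2 fold change 1.56, SE 0.33, adjusted p = 0.022). Slc2a3, which encodes the high-affinity transporter GLUT3, was at 7.84, 5.47 and 7.27 CPM in the 3 WT mice and 22.7, 18.4 and 20.5 CPM in the 3 sST2-KO mice. It had the narrowest spread among sST2-KO mice of the genes that rose, with a log2 fold change of 1.58 (SE 0.24, adjusted p = 0.0136, edgeR). Slc2a6 encodes GLUT6, which leukocytes express, and was at 2.05, 2.73 and 1.97 CPM in the 3 WT mice and 7.67, 7.0 and 30.5 CPM in the 3 sST2-KO mice. One library, sST2-KO replicate 3, stood far above the other two, although these also lay above the WT libraries. The log2 fold change of Slc2a6 was 2.73 (adjusted p = 0.0267, edgeR) with all libraries and 1.69 (adjusted p = 0.0300) without sST2-KO replicate 3.

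The makeup of the transporter family changed with these shifts. Per kilobase of transcript, Slc2a4 held 86.8% ± 1.30 in WT and 46.0% ± 11.4 in sST2-KO mice (SD, n = 3) of the summed level of the 4 transporters. The share of Slc2a1 was 9.66% ± 1.74 in WT and 35.4% ± 7.57 in sST2-KO mice. Slc2a3 took 2.18% ± 0.511 in WT and 8.34% ± 2.05 in sST2-KO mice, and Slc2a6 took 1.34% ± 0.359 in WT and 10.3% ± 7.51 in sST2-KO mice. The sum itself was 71.5, 75.4 and 94.4 CPM per kilobase in WT and 53.7, 62.4 and 75.4 CPM per kilobase in sST2-KO mice, and these ranges overlapped. The log2 ratio of Slc2a4 to Slc2a1 counts was 2.76, 2.22 and 2.28 in WT and 0.30, -0.45 and -1.04 in sST2-KO mice. A ratio within a library does not depend on how the library is scaled. Slc2a4 shares exon sequence with Ybx2 on the opposite strand, which also fell (log2 fold change -2.31, adjusted p = 0.0253, edgeR), and the part of such reads in the value of Slc2a4 was not tested.

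**Figure D2:**
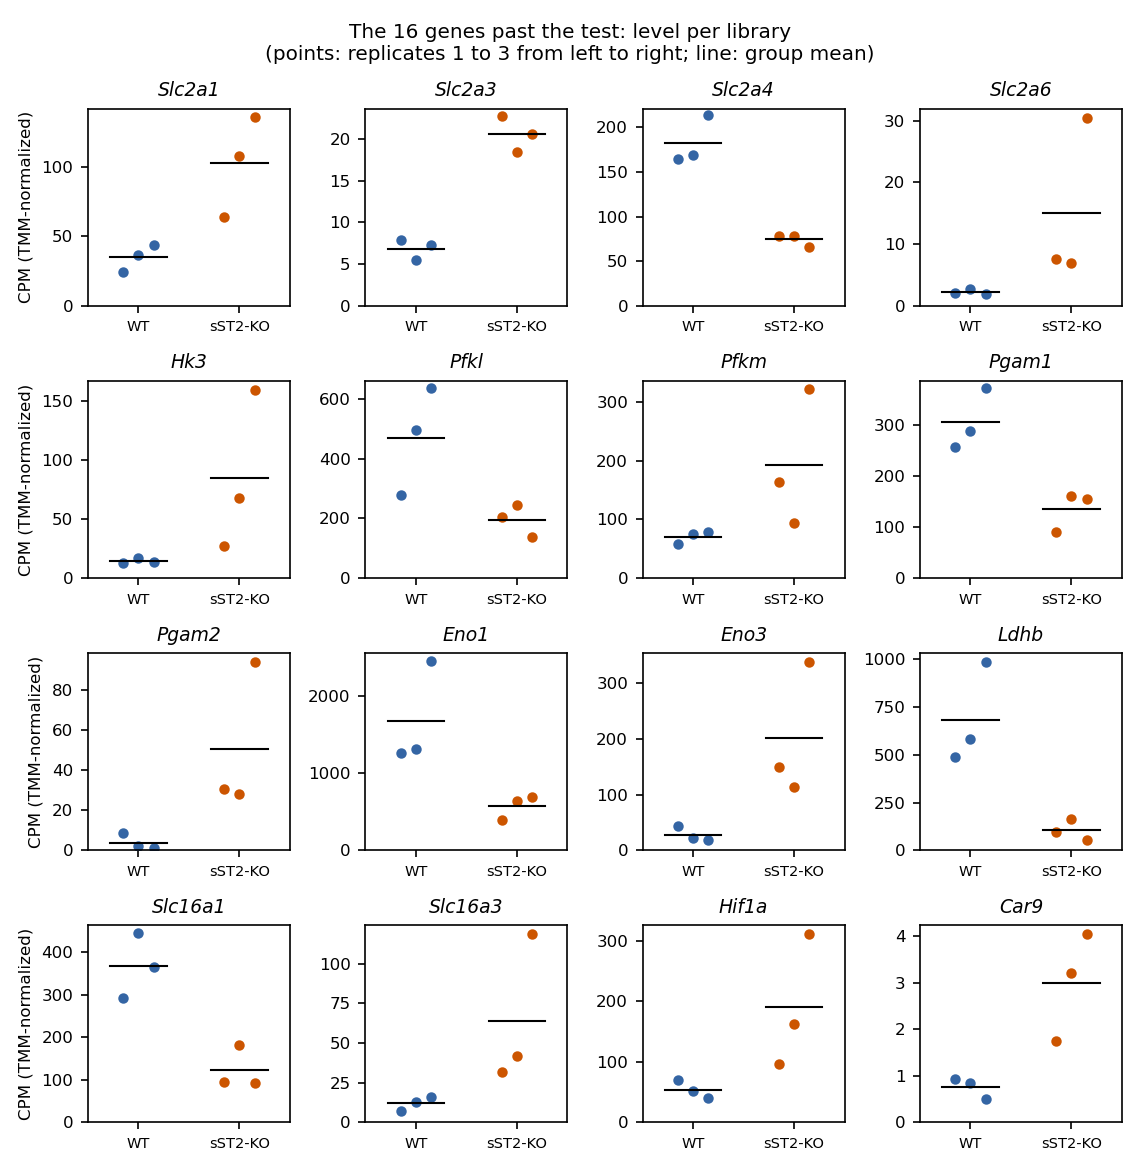
TMM-normalized CPM of the 16 genes that passed the test in each library, with replicates 1 to 3 from left to right within a group and a line at the group mean. No sST2-KO value lies within the WT range in any panel, and sST2-KO replicate 3 is highest in 9 of the 10 genes that rose.

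Among the hexokinases, Hk3 rose, and Hk1 and Hk2 did not pass the test. Hk3, an isoform found mainly in myeloid cells, was at 12.4, 17.2 and 13.9 CPM in the 3 WT mice and 26.9, 67.5 and 159 CPM in the 3 sST2-KO mice. The 3 WT values were within a narrow range, whereas the sST2-KO values spread widely above them. Its log2 fold change was 2.54 (SE 0.59, adjusted p = 0.0268, edgeR), and 1.70 (adjusted p = 0.0406) without sST2-KO replicate 3. Hk2, the insulin-regulated isoform of muscle and fat, stood at 284 ± 93.4 CPM in WT and 293 ± 123 CPM in sST2-KO mice (SD, n = 3), with groups that overlapped and a fold change near 0 (log2 fold change 0.042, adjusted p = 0.951, edgeR). Hk1, the isoform of most tissues, stood at 76.7 ± 17.8 CPM in WT and 101 ± 24.3 CPM in sST2-KO mice (log2 fold change 0.39, adjusted p = 0.303, edgeR). Per kilobase, the share of Hk2 in the 3 hexokinases was 61.2% ± 8.14 in WT and 43.2% ± 4.41 in sST2-KO mice, and that of Hk3 was 7.70% ± 0.458 in WT and 27.1% ± 12.5 in sST2-KO mice.

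The 3 genes for phosphofructokinase 1, which catalyzes the committed step of glycolysis, went separate ways. Pfkl, the liver isoform, was at 278, 498 and 637 CPM in the 3 WT mice and 205, 245 and 139 CPM in the 3 sST2-KO mice. WT replicate 1 came closest to the sST2-KO libraries without reaching them, and Pfkl fell (log2 fold change -1.26, SE 0.36, adjusted p = 0.0473). Pfkm, the muscle isoform, was at 58.3, 74.7 and 78.4 CPM in the 3 WT mice and 164, 94.5 and 323 CPM in the 3 sST2-KO mice. Its sST2-KO values all exceeded the WT values, 1 of them by little, and Pfkm rose (log2 fold change 1.46, SE 0.42, adjusted p = 0.0494). With sST2-KO replicate 3 left out, its log2 fold change was 0.86 (adjusted p = 0.0903, edgeR), so the call rests on that library as well as on WT replicates 1 to 3 and sST2-KO replicate 1. Pfkp, the platelet isoform, stood at 248 ± 89.3 CPM in WT and 189 ± 50.7 CPM in sST2-KO mice and did not pass (log2 fold change -0.39, adjusted p = 0.413, edgeR). Per kilobase, Pfkl made up 59.6% ± 6.93 in WT and 35.0% ± 12.0 in sST2-KO mice of the family, and Pfkm made up 9.68% ± 1.83 in WT and 33.7% ± 16.8 in sST2-KO mice. In sST2-KO replicate 3 alone, Pfkm exceeded Pfkl per kilobase, with shares of 50.7% and 21.2%.

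The remaining enzymes of upper glycolysis did not pass the test, although all 4 had negative log2 fold changes. Gpi1, which converts glucose 6-phosphate to fructose 6-phosphate, was at 560.4, 860.5 and 1178 CPM in the 3 WT mice and 541, 416 and 515 CPM in the 3 sST2-KO mice, without overlap of the groups (log2 fold change -0.82, adjusted p = 0.107, edgeR). Aldoa, the aldolase of muscle and most other tissues, was at 2571, 2714 and 5652 CPM in the 3 WT mice and 1746, 1387 and 2303 CPM in the 3 sST2-KO mice, again without overlap (log2 fold change -1.01, adjusted p = 0.123, edgeR). In both genes, WT replicate 3 was the highest library, and for Aldoa it exceeded every other library by a wide margin. Tpi1, which interconverts the triose phosphates, stood at 488 ± 113 CPM in WT and 356 ± 123 CPM in sST2-KO mice (log2 fold change -0.45, adjusted p = 0.341, edgeR). Aldoc, the aldolase of brain, was listed at 0.466 to 5.47 CPM over the 6 libraries and made up at most 0.109% of the aldolases per kilobase in any library. DESeq2 called Gpi1 and Aldoa in addition to the 16 genes.

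The 4 bifunctional enzymes that make and degrade fructose 2,6-bisphosphate, the activator of phosphofructokinase 1, did not pass the test. Pfkfb3, the isoform with the highest kinase activity, was the most abundant per kilobase in every library, with a share of 69.4% ± 11 in WT and 77.3% ± 2.10 in sST2-KO mice of the 4. Its level was 504, 348 and 207 CPM in the 3 WT mice and 436, 438 and 299 CPM in the 3 sST2-KO mice. WT replicates alone spanned a wider range than the sST2-KO replicates, and the fold change was small (log2 fold change 0.15, adjusted p = 0.793, edgeR). Pfkfb2 was lower in each sST2-KO library than in any WT library, with means of 16.5 ± 2.10 CPM in WT and 12.3 ± 1.23 CPM in sST2-KO mice (log2 fold change -0.42, adjusted p = 0.198, edgeR). Pfkfb1 (log2 fold change -0.60, adjusted p = 0.216, edgeR) and Pfkfb4 (log2 fold change 0.60, adjusted p = 0.222, edgeR) overlapped between the groups.

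In lower glycolysis, the muscle isoforms rose and their widely expressed counterparts fell. Eno1, the enolase of most tissues, was at 1253, 1311 and 2448 CPM in the 3 WT mice and 388, 641 and 687 CPM in the 3 sST2-KO mice. The groups did not overlap, with WT replicate 3 highest, and Eno1 fell (log2 fold change -1.55, SE 0.38, adjusted p = 0.0312). Eno3 (chr11:70546593-70553340, + strand), the muscle enolase, was at 44.2, 22.4 and 17.6 CPM in the 3 WT mice and 150.3, 115 and 338 CPM in the 3 sST2-KO mice. It was lowest in WT replicate 3 and highest in sST2-KO replicate 3, and it rose (log2 fold change 2.84, SE 0.52, adjusted p = 0.0164). Pgam1, the phosphoglycerate mutase of most tissues, was at 257, 287 and 372 CPM in the 3 WT mice and 90.5, 159.8 and 154 CPM in the 3 sST2-KO mice, without overlap, and fell (log2 fold change -1.18, SE 0.28, adjusted p = 0.0293). Pgam2, the muscle mutase, was at 8.58, 1.98 and 0.986 CPM in the 3 WT mice and 30.5, 27.9 and 93.9 CPM in the 3 sST2-KO mice. Its WT values were low and differed among themselves, with replicate 1 highest, and Pgam2 rose (log2 fold change 3.69, SE 0.83, adjusted p = 0.0249). Eno3 had a log2 fold change of 2.22 (adjusted p = 0.0247, edgeR) without sST2-KO replicate 3. For Pgam2, the log2 fold change was 2.89 (adjusted p = 0.0524, edgeR) without that library and 5.05 (adjusted p = 0.0262) without WT replicate 1.

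For enolase and phosphoglycerate mutase, 1 isoform rose and the other fell, so the ratio between them necessarily moved further than either gene. The log2 ratio of Eno3 to Eno1 counts was -4.82, -5.87 and -7.12 in WT and -1.37, -2.49 and -1.02 in sST2-KO mice, a difference of means of 4.31. For Pgam2 to Pgam1, the log2 ratio was -4.90, -7.18 and -8.56 in WT and -1.57, -2.52 and -0.71 in sST2-KO mice, a difference of 5.28. Within WT mice, both ratios were highest in replicate 1. Per kilobase, Eno3 made up 2.53% ± 1.77 in WT and 30.7% ± 10.5 in sST2-KO mice of both enolases together. The share of Pgam2 in the mutases was 2.80% ± 3.19 in WT and 41.1% ± 14.6 in sST2-KO mice, and in sST2-KO replicate 3 Pgam2 held 55.7% of the family. Of the 12 ratios formed within the families, 8 did not overlap between the groups. The share of such ratios among all genes was not computed. In Eno3/Eno1, Pgam2/Pgam1, Pfkm/Pfkl, Slc2a4/Slc2a1, Slc16a3/Slc16a1 and Epas1/Hif1a, the 2 genes lay apart in opposite directions. Their ratios therefore had to lie apart, and the count is no further result.

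**Figure D3:**
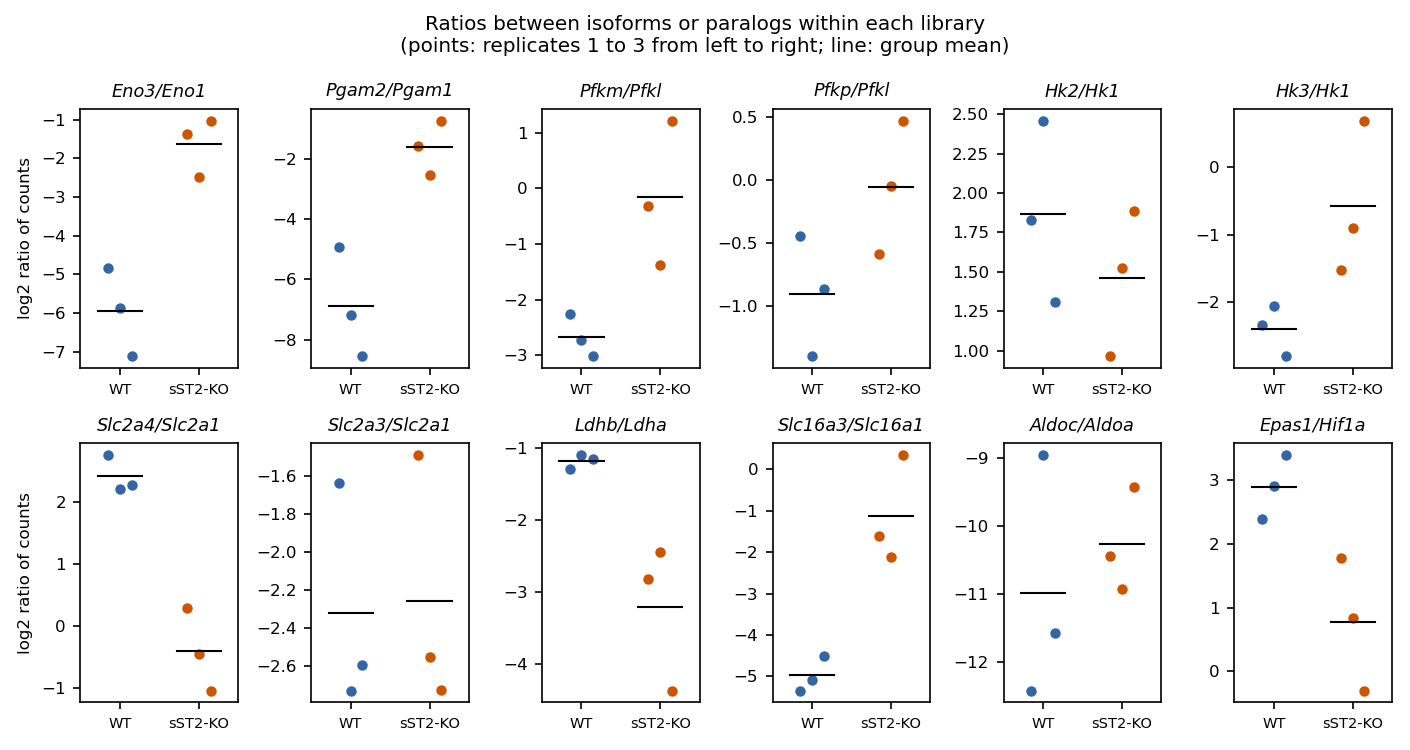
Log2 ratio of the counts of 2 isoforms or related genes within each library, with replicates 1 to 3 from left to right and a line at the group mean. The groups are apart in 8 of the 12 panels, most for Pgam2/Pgam1 and Eno3/Eno1, and overlap for Pfkp/Pfkl, Hk2/Hk1, Slc2a3/Slc2a1 and Aldoc/Aldoa. Where the 2 genes of a panel lay apart in opposite directions, their ratio had to lie apart too.

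Markers of skeletal muscle fibers differed between the libraries in a similar way. Acta1, the actin of skeletal muscle, was at 388, 5.65 and 0.740 CPM in the 3 WT mice and 1813, 1042 and 3906 CPM in the 3 sST2-KO mice. Ckm, the creatine kinase of muscle, was at 126, 1.88 and 0 CPM in the 3 WT mice and 689, 392 and 1792 CPM in the 3 sST2-KO mice, that is, without a count in WT replicate 3. Neither passed the test (adjusted p = 0.155 for Acta1 and 0.131 for Ckm, edgeR), and WT replicate 1 held far more of both than the other WT libraries. The summed muscle markers, Eno3 and Pgam2 were all highest among WT libraries in replicate 1 and highest among sST2-KO libraries in replicate 3, with replicate 2 lowest. Pfkm had this order among sST2-KO libraries, while among WT libraries it was lowest in replicate 1. Of the 18 muscle markers, 4 had no count in at least 1 WT library. The part of muscle RNA in the values of Eno3, Pgam2 and Pfkm was not tested.

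**Figure D4:**
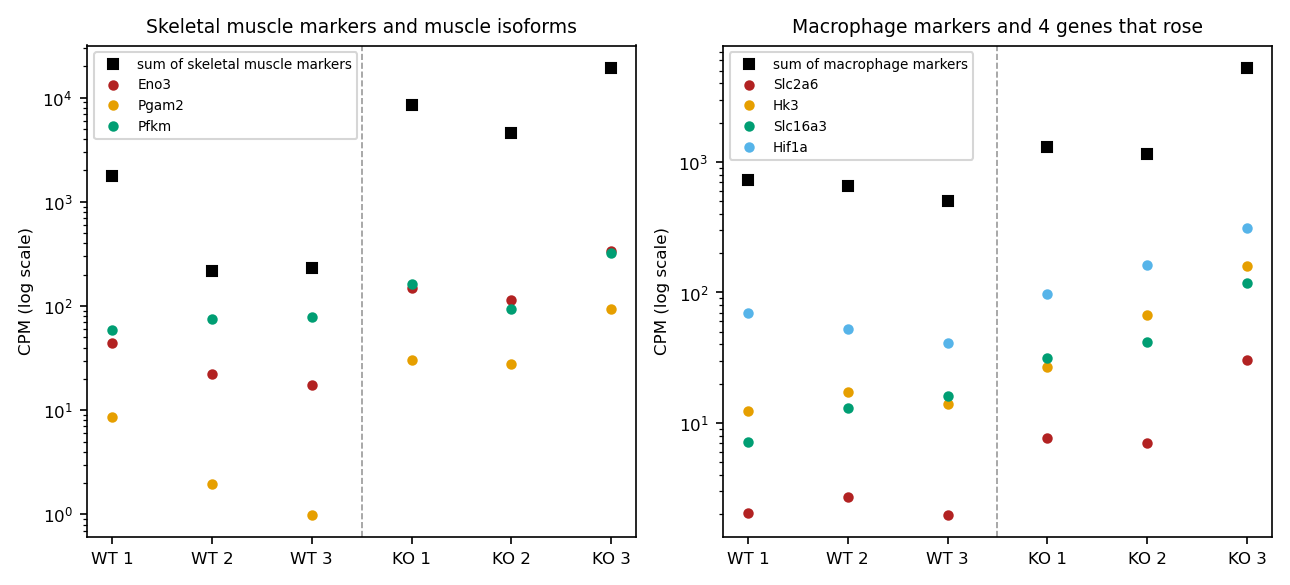
TMM-normalized CPM on a log scale in each WT and sST2-KO (KO) library of the summed skeletal muscle markers with Eno3, Pgam2 and Pfkm (left) and of the summed macrophage markers with Slc2a6, Hk3, Slc16a3 and Hif1a (right). The muscle sum lies between 218 and 1763 CPM in WT and between 4553 and 19319 CPM in sST2-KO mice, and all 9 series peak in KO 3.

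The other enzymes of lower glycolysis did not pass the test. Pgk1, which makes the first ATP of the pathway, stood at 639 ± 221 CPM in WT and 398 ± 117 CPM in sST2-KO mice (log2 fold change -0.68, adjusted p = 0.184, edgeR). Pkm, which encodes the muscle-type pyruvate kinases M1 and M2 and forms the last ATP, stood at 1576 ± 543 CPM in WT and 1264 ± 376 CPM in sST2-KO mice (log2 fold change -0.32, adjusted p = 0.558, edgeR). Gapdh, often used as a reference gene, stood at 164 ± 39.8 CPM in WT and 134 ± 33.5 CPM in sST2-KO mice (log2 fold change -0.29, adjusted p = 0.469, edgeR). The value of Gapdh is uncertain, because 87 other annotated genes match its sequence at 95% identity or more over at least 150 bases, and how the counting treated reads that match several of them is not given in the sources used here. Such copies exist for 10 of the 36 genes, with 17 for Bnip3, 5 for Eno1 and 4 each for Pgk1 and Ldha. Summed over the 19 glycolytic enzymes and lactate dehydrogenases, the level was 9472, 10696 and 18174 CPM in the 3 WT mice and 6059.7, 6974 and 9345 CPM in the 3 sST2-KO mice. The lowest WT sum and the highest sST2-KO sum lay close together, and with levels scaled by total counts the groups overlapped, with 9431 CPM in WT replicate 1 and 10643 CPM in sST2-KO replicate 3. The most abundant enzymes per kilobase were Aldoa and Ldha in both groups.

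At the exit of the pathway, Ldhb and Slc16a1 fell, Slc16a3 rose and Ldha did not pass the test. Ldhb (chr6:142435672-142454586, - strand) encodes the heart-type lactate dehydrogenase subunit, which favors the oxidation of lactate, and it was at 486, 582 and 985 CPM in the 3 WT mice and 96.2, 166 and 51.4 CPM in the 3 sST2-KO mice. All WT values were far above the sST2-KO values, of which replicate 3 was lowest, and Ldhb showed the largest decrease of the 36 genes (log2 fold change -2.71, SE 0.49, adjusted p = 0.0159). Ldha, the subunit that favors lactate formation, was at 1189.8, 1248 and 2189 CPM in the 3 WT mice and 677, 905 and 1063 CPM in the 3 sST2-KO mice, also without overlap (log2 fold change -0.81, adjusted p = 0.133, edgeR). The log2 ratio of Ldhb to Ldha counts was -1.29, -1.10 and -1.15 in WT and -2.81, -2.45 and -4.37 in sST2-KO mice. It differed little among the WT mice. The share of Ldhb in both subunits per kilobase was 31.4% ± 1.47 in WT and 11.2% ± 5.77 in sST2-KO mice.

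The monocarboxylate transporters, which move lactate across the cell membrane, also changed in opposite directions. Slc16a1 encodes MCT1, a transporter of high affinity found in most tissues, and was at 291, 445 and 365 CPM in the 3 WT mice and 95.7, 182 and 93.1 CPM in the 3 sST2-KO mice. The groups were well apart, and Slc16a1 fell (log2 fold change -1.57, SE 0.33, adjusted p = 0.0209). Slc16a3 (chr11:120838846-120851694, + strand) encodes MCT4, the lactate exporter of glycolytic cells, and was at 7.18, 13.1 and 16.2 CPM in the 3 WT mice and 31.5, 41.8 and 119 CPM in the 3 sST2-KO mice. Its sST2-KO values all exceeded the WT values, with replicate 3 above the other two, and Slc16a3 rose (log2 fold change 2.40, SE 0.55, adjusted p = 0.0263). Slc16a3 had a log2 fold change of 1.59 (adjusted p = 0.0367, edgeR) when sST2-KO replicate 3 was left out. The log2 ratio of Slc16a3 to Slc16a1 counts was -5.34, -5.09 and -4.50 in WT and -1.60, -2.13 and 0.35 in sST2-KO mice. Per kilobase, Slc16a3 made up 3.10% ± 0.932 in WT and 32.7% ± 19.9 in sST2-KO mice of both transporters. The opposite-strand neighbors of Slc16a3, Ccdc57 and Csnk1d, had log2 fold changes of 0.077 and 0.094.

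Of the hypoxia genes, Hif1a and Car9 rose, and the other 5 did not pass the test. Hif1a (chr12:73948149-73996321, + strand) encodes the oxygen-regulated subunit of HIF-1 and was at 69.6, 52.2 and 40.9 CPM in the 3 WT mice and 96.5, 163 and 312 CPM in the 3 sST2-KO mice. Both ranges were apart, with more spread among sST2-KO than among WT mice, and Hif1a rose (log2 fold change 1.81, SE 0.43, adjusted p = 0.0292). The regulation of HIF-1 by oxygen takes place on the protein, which was not measured. Gm15283, which lies on the strand opposite to Hif1a, rose as well (log2 fold change 2.94, adjusted p = 0.0335, edgeR), from 0.332 to 2.69 CPM. Car9, a carbonic anhydrase of the cell surface and a classic HIF target, was at 0.933, 0.848 and 0.493 CPM in the 3 WT mice and 1.74, 3.20 and 4.05 CPM in the 3 sST2-KO mice, so that it rose at a level of few counts (log2 fold change 1.94, SE 0.46, adjusted p = 0.0294).

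Epas1, which encodes the HIF-2 subunit abundant in fat and endothelium, was at 364, 391 and 431 CPM in the 3 WT mice and 332, 290.4 and 253 CPM in the 3 sST2-KO mice and did not pass, although the groups did not overlap (log2 fold change -0.44, adjusted p = 0.178, edgeR). The log2 ratio of Epas1 to Hif1a counts was 2.39, 2.90 and 3.40 in WT and 1.78, 0.83 and -0.30 in sST2-KO mice. This ratio of counts, which is not corrected for transcript length, was lower in each sST2-KO library than in any WT library. Egln1, the main prolyl hydroxylase that marks HIF for degradation, stood at 144 ± 48.4 CPM in WT and 92.6 ± 16.3 CPM in sST2-KO mice without overlap (log2 fold change -0.63, adjusted p = 0.148, edgeR). Egln3, a HIF-induced prolyl hydroxylase, stood at 18.5 ± 7.57 CPM in WT and 34.5 ± 18.2 CPM in sST2-KO mice (log2 fold change 0.91, adjusted p = 0.22, edgeR). Bnip3, which promotes mitophagy, stood at 492 ± 149.7 CPM in WT and 346 ± 91.1 CPM in sST2-KO mice (log2 fold change -0.51, adjusted p = 0.273, edgeR). Ankrd37, a HIF target of low abundance, stood at 2.27 ± 1.21 CPM in WT and 5.24 ± 2.63 CPM in sST2-KO mice (log2 fold change 1.21, adjusted p = 0.148, edgeR). Of the HIF targets Egln3, Bnip3, Car9 and Ankrd37, only Car9 passed the test, and only Bnip3 had a negative log2 fold change.

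Slc2a6, Hk3, Slc16a3 and Hif1a had their highest level in sST2-KO replicate 3, as did the summed macrophage markers. The summed muscle, fibroblast, neutrophil and T cell markers were also highest there, while the endothelial sum was highest in sST2-KO replicate 2. Hk3, Slc16a3 and Hif1a were higher in sST2-KO replicate 2 than in replicate 1, unlike the macrophage sum and Slc2a6. Among WT libraries, the macrophage sum and Hif1a were highest in replicate 1, where Slc16a3 was lowest. In sST2-KO replicate 3, the macrophage sum was 5252 CPM, against 1303 and 1144 CPM in sST2-KO replicates 1 and 2. Adgre1, which encodes the macrophage protein F4/80, was at 29.9, 35.9 and 21.0 CPM in the 3 WT mice and 77.6, 38.0 and 244 CPM in the 3 sST2-KO mice and did not pass the test (adjusted p = 0.0586, edgeR). S100a8, which neutrophils express strongly, was at 7.65, 5.84 and 38.3 CPM in the 3 WT mice and 125, 36.9 and 181 CPM in the 3 sST2-KO mice (adjusted p = 0.0577, edgeR). The summed neutrophil markers were 38.5, 31.7 and 134 CPM in the 3 WT mice and 474, 146 and 690.4 CPM in the 3 sST2-KO mice, and 3 of the 8 rose. The summed T cell markers were 13.3, 14.1 and 13.9 CPM in the 3 WT mice and 114, 111 and 141 CPM in the 3 sST2-KO mice, and 6 of the 7 tested rose. The part of these cells in the rises of Slc2a6, Hk3, Slc16a3 and Hif1a was not tested. Slc2a4, Pfkl, Pgam1, Eno1, Ldhb and Slc16a1 fell, as did 6 of the 9 brown adipocyte markers, whose sum was 7888, 9789.7 and 14743 CPM in the 3 WT mice and 488, 1741 and 332 CPM in the 3 sST2-KO mice. Of 8 markers of adipocytes in general, 1 fell and 7 did not pass, with a median log2 fold change of -0.92 and a sum of 16633, 21426 and 21956 CPM in the 3 WT mice and 12303, 11159 and 5914 CPM in the 3 sST2-KO mice. The marker that fell was Adipoq, at 1043, 1226 and 1509 CPM in the 3 WT mice and 517, 703 and 375 CPM in the 3 sST2-KO mice (log2 fold change -1.24, adjusted p = 0.0335, edgeR). Lep, which encodes leptin and was picked out after its values were seen, was the only 1 of the 8 with a positive log2 fold change (3.27, adjusted p = 0.13, edgeR). The part of a lower share of adipocyte RNA in these falls was not tested.

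Around these 36 genes, 101 further genes of glucose and hypoxia pathways were tested, of which 10 rose (9.90%) and 25 fell (24.8%). Of all genes tested, 10.5% rose and 9.1% fell, so that the share of rises was near the background and that of falls above it. The lists were chosen with earlier results of these data known, so these shares are no test of the pathways. The falls were also uneven, with 9 of the 25 in 1 list. Of 13 genes that lead pyruvate into the mitochondria, 9 fell and 1 rose. Mpc2, a subunit of the mitochondrial pyruvate carrier, stood at 376 ± 144 CPM in WT and 69.2 ± 13.4 CPM in sST2-KO mice (log2 fold change -2.44). Dlat and Pdhb, subunits of pyruvate dehydrogenase, fell by 2.09 and 2.00 on the log2 scale, and Pdp2, the phosphatase that activates the complex, fell by 2.03. Pdk3, a kinase that inhibits it, rose from 3.73 to 13.8 CPM (log2 fold change 1.88). In the pentose phosphate pathway, 3 of 8 genes fell and none rose. They were Tkt (log2 fold change -2.82), Pgls (-1.62) and Taldo1 (-1.24), of which Tkt and Taldo1 act in the non-oxidative branch. The adjusted p of the other 8 genes named in this paragraph lay between 0.0122 and 0.0293 in edgeR's quasi-likelihood test.

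Of 17 other glycolytic and gluconeogenic enzymes, 6 fell and 1 rose. Gpd1 and Gpd2, the cytosolic and mitochondrial glycerol 3-phosphate dehydrogenases that form a shuttle for electrons from glycolysis, had log2 fold changes of -2.30 and -2.62 (adjusted p = 0.0199 and 0.0136, edgeR). Pcx, which carboxylates pyruvate, had a log2 fold change of -1.64 (adjusted p = 0.0277, edgeR). The gene listed as Pgm1 rose (log2 fold change 1.04, adjusted p = 0.035, edgeR). The related Pgm2 was more abundant, at 165 CPM in WT and 112 CPM in sST2-KO mice, and lower without overlap, but did not pass (log2 fold change -0.56, adjusted p = 0.0968, edgeR). The annotation behind these symbols is not given, so no role was assigned to either gene. Fbp1, a gluconeogenic phosphatase, was at 1.03, 62.1 and 1.23 CPM in the 3 WT mice and 0, 0.237 and 0.197 CPM in the 3 sST2-KO mice, so its WT mean is set by replicate 2. None of 6 other glucose transporters passed the test, and 1 of them did not overlap between the groups. Emb, an accessory subunit of monocarboxylate transporters, rose from 12.2 to 89.2 CPM (log2 fold change 2.86, adjusted p = 0.0183, edgeR).

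Among 20 genes of insulin signaling to glucose uptake, 2 rose and 2 fell, which makes 20.0% and is close to the 19.6% of all genes tested. In that list, Pik3r1, a regulatory subunit of PI3 kinase, was the only gene past both the test and 2-fold (log2 fold change 1.25, adjusted p = 0.0141, edgeR). Of 7 other HIF pathway genes, 1 rose and 1 fell, both by less than 2-fold. Of the 27 other hypoxia-inducible genes tested, 4 rose and 4 fell. Bhlhe40, a transcriptional repressor, had a log2 fold change of 2.11, and Adm, the vasodilator adrenomedullin, of 1.27 (adjusted p = 0.0133 and 0.0136, edgeR). Stc2, a secreted glycoprotein, Gbe1, the glycogen branching enzyme, and Fam162a, a mitochondrial protein, had log2 fold changes of -2.26, -1.57 and -1.24 (adjusted p = 0.0148, 0.015 and 0.0321, edgeR). The counts over these lists also depended on WT replicate 3, without which 0 of the 101 genes rose and 1 fell, against 12 and 27 at an unadjusted p under 0.05 in edgeR.

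**Figure D5:**
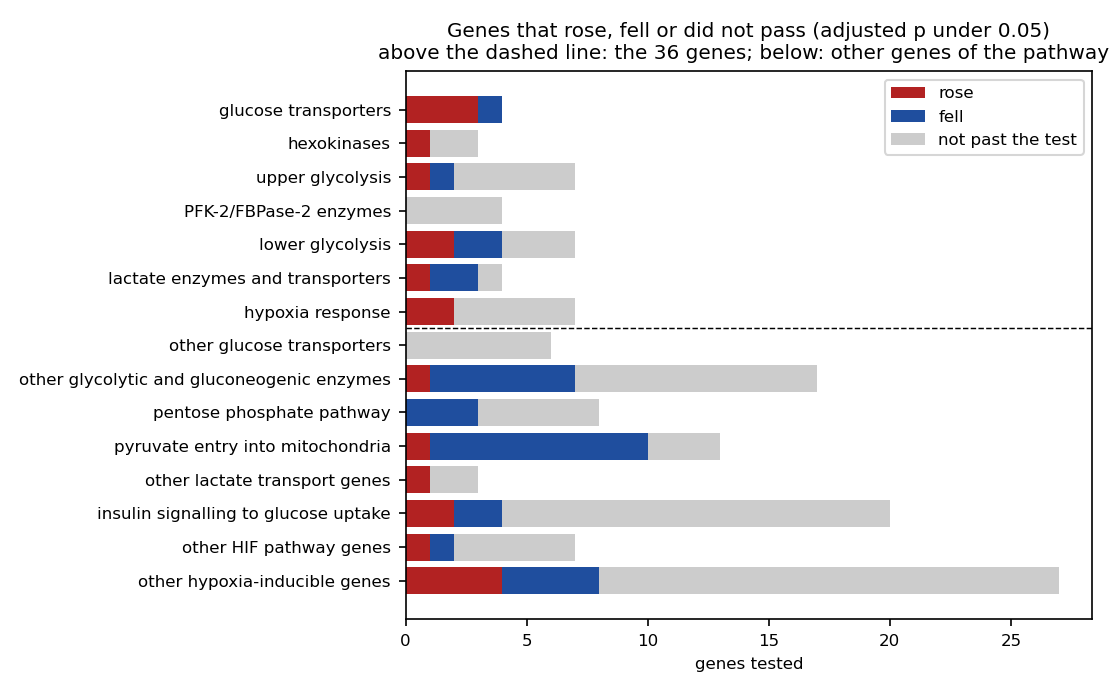
Number of genes tested in each list that rose (red), fell (blue) or did not pass the test (grey), for the 7 roles of the 36 genes above the dashed line and for the other pathway genes below it. In pyruvate entry into mitochondria, 9 of 13 genes fell, while rises and falls occur side by side in lower glycolysis and among the other hypoxia-inducible genes.

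The order of the levels per kilobase changed for the genes that moved most. Eno3 went from place 23 in WT to place 8 in sST2-KO mice among the 36 genes, and Pgam2 from place 29 to place 14. Ldhb went from place 5 to place 13. Aldoa and Ldha held the first places in both groups, with means of 2412 and 971 CPM per kilobase in WT mice. Aldoc and Car9 were last. The gain of Eno3 left it below Eno1, at 116 against 249.5 CPM per kilobase in sST2-KO mice.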

How the data were processed

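The authors sequenced mRNA from BAT of 6 mice (3 WT, 3 sST2-KO) in read pairs of 150 bases each after poly-A selection, aligned it to mm39 and ran htseq-count. The deposited values are raw counts per gene symbol, without normalization. The submitters' processing notes name HISAT2 2.2.1 and FastQC 0.12.1. The annotation and the use of strand are not given in the sources used here, so a gene and its opposite-strand neighbor can share reads. Such neighbors overlap exons of 24 of the 36 genes.

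The fit used edgeR 4.0.16 in R 4.3.3 (filterByExpr, TMM factors, glmQLFit and glmQLFTest without covariates, Benjamini-Hochberg adjustment over 14542 genes). Rises and falls are at an adjusted p under 0.05. The authors' methods name DESeq2 and a 2-fold minimum. The standard error is the log2 fold change divided by the square root of F. The members and lists were chosen with earlier results of these data known. Named were all 36 genes, from each pathway list at most the 4 largest changes per direction above 2-fold, the targeted gene and the markers Ucp1, Adipoq, Acta1, Ckm, Adgre1 and S100a8. Opposite-strand neighbors were named for their position. Pdk1, Pdk2, Pdk4 and Pgm2 were named beside their relatives after their values were seen.

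Levels per kilobase and shares were computed from TMM-normalized CPM and the length of the Ensembl canonical transcript (GRCm39, GENCODE). Near-identical copies were searched with blastn 2.17.0. Tried instead were DESeq2 1.42.0, scaling by RLE or by total counts, a filter of 10 counts in each library or none, robust estimation, a block for the replicate number, and leaving out each library. No library was a copy of another, with chi-square values between same-group libraries of 36.6 to 104 per degree of freedom. GEO's labels do not name litters or cages. The p-values weigh the difference between the groups against the spread among the 3 mice within each group. The estimate of that spread borrows from other genes. Counts for this comparison were simulated with 200 changed genes, 197 of them among the 14348 tested, and 1 dispersion shared by all genes. There, edgeR recovered 89.7% at 4-fold and 100% at 8-fold and called 6 unchanged genes. These shares do not carry over to genes that spread more widely within a group. Acta1 and Ckm, for example, did not pass in the real data at log2 fold changes of 4.10 and 4.49. Python 3.11.15 and matplotlib 3.10.9 were used for plots. Results on some items are not reported here.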

Additional observations from a re-analysis of the deposited data

How the results depend on the processing

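All 16 genes kept their direction under every alternative, which groups without overlap made nearly certain beforehand. DESeq2 called 18 of the 36 genes, adding Aldoa and Gpi1. Robust estimation and testing without a filter called 16 each, RLE and total-count scaling 15 each, and a minimum of 10 counts per library 14. RLE scaling lost Pfkm, total-count scaling lost Pfkl, and the count minimum removed Pgam2 and Car9 of the 16 from testing. Scaling by total counts gave 2181 rises and 891 falls among all genes, against 1524 and 1323, and moved the median log2 fold change of all genes from 0.034 to 0.29 and that of the 36 genes from -0.35 to -0.067. The overlap of the groups on that scale was examined after seeing the data. With the replicate number as a block, 0 genes passed in any count (36 genes, other pathway genes and all genes, with and without the 2-fold minimum, in either direction). At an unadjusted p under 0.05, that fit gave 11 rises and 9 falls among the 36 genes, 14 and 28 among the other pathway genes, and 2438 and 2185 among all genes. Same-numbered libraries deviated from their groups with correlations of -0.058 (replicate 1), 0.21 (replicate 2) and -0.31 (replicate 3). These values cannot show whether the replicate numbers pair the mice by litter or cage, which the labels do not name.

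Leaving out 1 library at a time gave 0 to 9 rises and 0 to 7 falls among the 36 genes, also above 2-fold, and 0 to 9 rises and 1 to 23 falls among the other pathway genes. For all genes, it gave 36 to 1502 rises and 22 to 1189 falls, or 36 to 1383 and 22 to 998 above 2-fold, with the lowest values without WT replicate 3. The log2 fold change of Hk2 was 0.042 with all libraries, -0.022 with the replicate block and -0.16 to 0.36 with 1 library left out, below 0 without WT replicate 1 (-0.11) or 3 (-0.073) or sST2-KO replicate 2 (-0.16) or 3 (-0.15). That of Aldoc ran from -1.37 to 0.65, above 0 without WT replicate 2, and that of Pfkfb3 from -0.13 to 0.49, below 0 without WT replicate 3. The causes of these changes were not tested. Depth limits Car9, Ankrd37 and Aldoc, which had few counts in each library.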
